A study of Arabidopsis thaliana with 12 samples.

Results

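The transcriptional response to heat was examined in the above-ground parts, here called shoots, of wild-type Arabidopsis thaliana of the Columbia (Col-0) line, a laboratory strain of a small flowering plant. Of the 12 Affymetrix arrays in the study, the 5 whose titles name the wild type were compared, 3 from heated plants and 2 from untreated plants. The other 7 arrays hold an msh1 recA3 double mutant in the same background (3 heated, 4 untreated) and entered only the estimate of the spread. All plants were 8 weeks old and had been grown on soil at 24 °C, first in days of 8 h and then of 16 h. The heated plants were kept at 37 °C, for 2 h by the design text and the sample labels but for about 24 h by the treatment protocol, so the length of the heat is not settled. The titles call the arrays biological replicates, and the number of plants behind each array is not given in the sources used here. Each array carries 1 value per probe set, a group of short probes read as 1 transcript, as a log2 signal. A difference of 1 on this scale is a doubling. In tissue extracts, a change in the number of cells of a type and a change in the RNA per cell cannot be told apart.

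Plants meet heat with a conserved programme. Heat unfolds proteins, heat shock transcription factors are released from their chaperones, and genes for small heat shock proteins, Hsp70 partners and Hsp90 co-chaperones are switched on. The endoplasmic reticulum (ER) has its own branch, in which membrane-bound bZIP factors are cut and move to the nucleus. Growth, cell division and cell wall loosening usually slow during such stress, and photosynthesis is among the processes most easily harmed by heat.

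The 5 arrays separated by treatment. The first principal component held 85.4% of their variance and set the heated from the untreated arrays. Correlations over 22746 probe sets were 0.992 to 0.995 among heated arrays, 0.991 between the untreated arrays and 0.933 to 0.941 between the groups. The untreated arrays differed from each other by at least 1 in 232 probe sets, and in 204 of these replicate 1 was the higher one. Of the leaf markers, Rubisco activase (RCA) and the antenna protein LHCB4.1 were measured under their names, at 13.58 to 13.70 and 13.08 to 13.15 in heated shoots and at 13.20 to 13.46 and 13.02 to 13.11 in untreated shoots. Of the root markers, EXPA7 lay below the median of all probe sets on all 5 arrays and PYK10 read 5.94 to 6.51 in heated shoots and 6.38 to 6.82 in untreated shoots. Only 2 of 10 leaf, 2 of 10 root and 1 of 6 pollen markers were measured under their names, and no flower or seed marker was. Control probe sets on the arrays moved with the treatment too. That for 25S ribosomal RNA read 10.15, 10.08 and 10.02 in heated shoots, against 7.62 and 7.85 in untreated shoots. The mean of 4 hybridisation spikes read 9.25, 9.46 and 9.33 on heated arrays, against 7.71 and 8.82 on untreated arrays. The difference between 3′ and 5′ probe sets, a measure of RNA integrity, was 1.39 to 1.5 for actin in heated shoots and 1.25 to 1.44 in untreated shoots, and for GAPDH 0.14 to 0.23 in heated shoots and -0.01 to 0.15 in untreated shoots. For ubiquitin it was -0.02, -0.15 and -0.19 in heated shoots, against -0.24 and -0.28 in untreated shoots, so that all 3 heated arrays were higher. The part of these controls in the results was not tested.

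Heat changed 6027 of 22746 probe sets (26.5%) at an adjusted p below 0.05 in limma's moderated test, with 3112 higher (13.7%) and 2915 lower (12.8%) in heated shoots. Counted by gene, with the brightest probe set for each of 13350 genes, 1695 rose (12.7%) and 1562 fell (11.7%), and the median difference over all genes was 0.01. The count of changed probe sets was 3912 without untreated replicate 1, the lowest value with any array left out. The sizes were uneven between the directions. Rises of at least 2 on the log2 scale were found for 190 genes and falls of that size for 37. At 3 the counts were 89 and 5, and at 5 they were 25 and 0. Counted over all probe sets, with or without an assigned gene, they were 173 and 16 at 3, and 46 and 0 at 5. Among the 89 genes, 37 had an untreated mean below the array median and 7 below the lower quartile, a range where signals were not shown to exceed background. The genes named below kept their calls under the alternative settings run for them, the replicate block apart, unless stated, and genes below the median of mean signals were not run in the setting with the brighter probe sets only. The 18 chaperones and 16 mitochondrial genes are covered by their counts. Groups did not overlap in 50.1% of all genes, called or not. Over all probe sets the groups did not overlap in 52.4%. A call with a difference of at least 1 on the log2 scale was made for 9.80% of probe sets, 4.28% being falls, and for 8.49% of genes. With the probe sets split by mean signal into 4 bins of equal size, 25.3% of the brightest bin rose and 15.4% fell, against 0.756% and 1.6% of the dimmest bin.

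**Figure D1:**
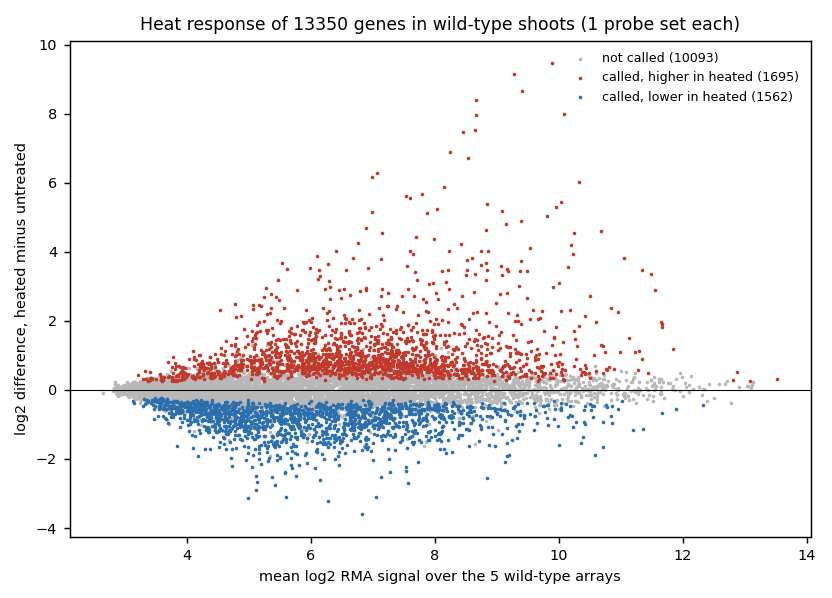
Log2 difference between heated and untreated wild-type shoots (y axis) against the mean log2 RMA signal of the 5 arrays (x axis), 1 point per gene. Called rises (1695 genes) reach beyond 9, while called falls (1562 genes) stay above -4.

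Several chaperones and co-chaperones were among the strongest rises. Small heat shock proteins hold unfolding proteins in a refoldable state, and co-chaperones load or release the clients of Hsp70 and Hsp90. In this list, 16 of 18 measured members rose and none fell, with a median log2 difference of 3.1, beside 12.7% of all genes that rose and 11.7% that fell. All 18 are given here. ATHSP22.0 (AT4G10250), a small heat shock protein of the ER, read 12.85, 12.93 and 13.03 in heated shoots, against 3.86 and 3.74 in untreated shoots. Its log2 difference was 9.14 ± 0.09 (SE) at an adjusted p of 1.36e-13. The untreated values lay at about the lower quartile of the arrays (3.71 to 3.79), a range where signals were not shown to exceed background. The peptidyl-prolyl isomerase ROF2 (AT5G48570), a partner of Hsp90, read 12.81, 12.9 and 12.94 in heated shoots, against 4.21 and 4.23 in untreated shoots. Hop3 (AT4G12400), which joins Hsp70 to Hsp90, read 11.37, 11.42 and 11.56 in heated shoots, against 4.09 and 3.89 in untreated shoots. These log2 differences were 8.66 ± 0.36 and 7.46 ± 0.28 (SE), and no heated array came near an untreated one. The other Hop genes rose less, Hop2 (AT1G62740) by 3.76 ± 0.33 and Hop1 (AT1G12270) by 1.64 ± 0.21 (SE). A similar order held in the Fes1 family, whose members act as nucleotide exchange factors of Hsp70. Fes1A (AT3G09350) read 11.24, 11.09 and 11.16 in heated shoots, against 6.41 and 5.52 in untreated shoots, and it rose by 5.19 ± 0.24. Its sister genes Fes1B (AT3G53800) and Fes1C (AT5G02150) rose by 0.90 ± 0.13 and 0.81 ± 0.15. The differences between paralogs were not tested.

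HSA32 (AT4G21320), needed to keep acquired heat tolerance over time, read 11.03, 10.94 and 11.27 in heated shoots, against 6.03 and 6.49 in untreated shoots. BOB1 (AT5G53400), a protein with chaperone activity needed for development and heat tolerance, read 10.13, 10.31 and 10.14 in heated shoots, against 6.58 and 6.57 in untreated shoots. SGT1A (AT4G23570), a co-chaperone of Hsp90 known from disease resistance, read 10.63, 10.47 and 10.4 in heated shoots, against 7.31 and 6.53 in untreated shoots. The 3 genes rose by 4.82 ± 0.24, 3.62 ± 0.14 and 3.58 ± 0.22, each by more than the whole range of its own group values. The cyclophilin SQUINT (SQN, AT2G15790), a further Hsp90 partner, rose by 2.69 ± 0.17, and Hsp70-2 (AT5G02490), a cytosolic Hsp70, by 2.73 ± 0.23. Chaperonin 60 subunits fold proteins inside plastids. Cpn60beta2 (AT3G13470) read 12.81, 12.6 and 12.79 in heated shoots, against 8.92 and 9.61 in untreated shoots, and it rose by 3.47 ± 0.32. Cpn60beta3 (AT5G56500) rose by 1.75 ± 0.28 and Cpn60beta4 (AT1G26230) by 1.28 ± 0.29. Cpn60beta4 was not called without untreated replicate 1, when 15 of the 18 rose. The mitochondrial J-protein ATJ1 (AT1G28210) was not called at 0.35 ± 0.15 and an adjusted p of 0.112, and CLPB2 (AT4G14670), of the Hsp100 family, was not called at 0.10 ± 0.08 and 0.426.

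**Figure D2:**
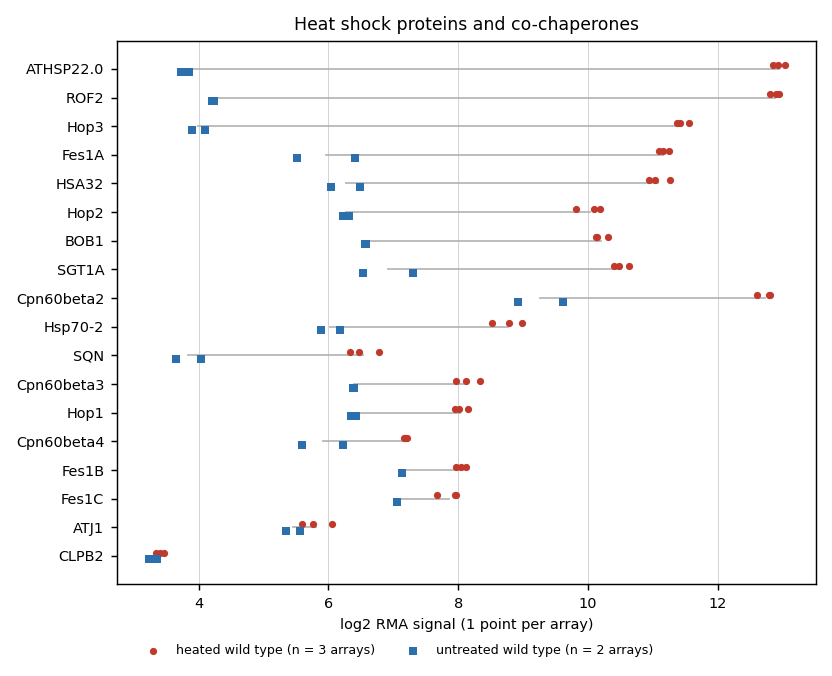
Log2 RMA signal (x axis) of the 18 measured heat shock proteins and co-chaperones on each array, heated wild type as circles (n = 3) above untreated wild type as squares (n = 2), joined by a line between group means. In 16 of the 18 genes the heated arrays were called higher, and only ATJ1 and CLPB2 were not called.

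Many of the other largest rises belong to genes whose symbol in the annotation used here is a locus, and they are given without a name or role. Some other genes here, ROF2 among them, have a locus as symbol too but carry a common name. Whether any of the unnamed loci encodes a small heat shock protein was not examined, so the chaperone list may be incomplete. AT1G53540 read 13.53, 13.74 and 13.75 in heated shoots, against 4.38 and 4.05 in untreated shoots. Its difference of 9.46 ± 0.26 (SE) was the largest measured among the 13350 genes. AT1G52560 followed with 12.05, 11.92 and 12.09 in heated shoots, against 3.5 and 3.76 in untreated shoots. AT2G29500 read 13.2, 13.33 and 13.34 in heated shoots, against 5.56 and 5.01 in untreated shoots. In these 3 loci the untreated arrays ranged from 3.5 to 5.56 and the heated arrays from 11.92 to 13.75. The untreated signals of AT1G53540 and AT1G52560 lay below their arrays' medians and were not shown to exceed background, so the sizes and the order, also against ATHSP22.0, are those of measured signals. AT5G51440, AT5G37670, AT5G07330, AT2G20560, AT1G71000, AT1G72660, AT1G54050 and AT1G44414 rose by 7.96, 7.53, 6.88, 6.72, 6.28, 6.17, 6.01 and 5.67. Except for AT1G54050, their untreated signals lay below their arrays' medians, as did those of ROF2 and Hop3. The untreated signals of AT1G71000 and AT1G72660 lay below the lower quartiles. Signals this low were not shown to exceed background, so these sizes and their order are also those of measured signals. With ATHSP22.0, ROF2, Hop3 and the mitochondrial gene nad6, these loci are the 15 largest rises among the 13350 genes. All 15 were called under each of the 11 alternative settings.

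The ER list, with folding enzymes and factors of the unfolded protein response and of the removal of misfolded proteins, moved mostly upward. 9 of 18 measured members rose and 3 fell, with a median log2 difference of 0.41, beside 12.7% and 11.7% of all genes. This count of rises was 7 without heated replicate 1, heated replicate 2, untreated replicate 1 or untreated replicate 2. The derlin DER1 (AT4G29330), part of the channel that returns misfolded proteins to the cytosol, read 8.59, 8.81 and 8.27 in heated shoots, against 6.0 and 5.67 in untreated shoots. A second probe set of DER1 lay at 3.07 to 3.15 in heated shoots and at 3.03 to 3.09 in untreated shoots and was not called. BZIP28 (AT3G10800), the membrane-bound factor that starts the ER stress response, read 9.6, 9.68 and 9.46 in heated shoots, against 7.55 and 7.09 in untreated shoots. ATERDJ3B (AT3G62600), a J-protein of the ER lumen, read 10.18, 10.18 and 10.23 in heated shoots, against 8.07 and 7.96 in untreated shoots. The log2 differences were 2.73 ± 0.34, 2.26 ± 0.14 and 2.18 ± 0.16 (SE), with adjusted p of 0.000129, 6.12e-07 and 1.86e-06. The calreticulin CRT1b (AT1G09210), a lectin chaperone, rose by 1.43 ± 0.20. Among the falls, ATCRT1 (AT5G56340) differed by -0.86 ± 0.18. It entered the list by its symbol, and no ER role is stated for it here. The other falls, of the derlin DER2.2 and the retrieval receptor ATRER1A, were -0.45 ± 0.15 and -0.46 ± 0.13. DER2.2 was not called without heated replicate 1 or 3 or either untreated replicate, and ATRER1A without heated replicate 2 or 3 or untreated replicate 2. Centring the arrays on their medians also ended both calls, and trend and robust moderation that of DER2.2.

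Genes that process RNA held many rises. In the list of splicing and mRNA processing, 16 of 34 measured members rose and 2 fell, with a median log2 difference of 0.52, beside 12.7% and 11.7% of all genes. With untreated replicate 1 left out, 12 rose. ATU2AF35A (AT1G27650), the small subunit of the factor that marks the 3′ splice site, read 8.73, 8.77 and 8.06 in heated shoots, against 6.9 and 6.88 in untreated shoots. The splicing factor RDM16 (AT1G28060) read 6.47, 6.43 and 6.47 in heated shoots, against 4.84 and 4.91 in untreated shoots. SERRATE (SE, AT2G27100), which acts in splicing and in microRNA maturation, read 6.77, 6.95 and 6.65 in heated shoots, against 5.2 and 5.34 in untreated shoots. The 3 rises were 1.63 ± 0.23, 1.58 ± 0.29 and 1.52 ± 0.14, and LSM6B (AT2G43810), of the ring that binds the U6 RNA, rose by 1.36 ± 0.18. The 2 falls were in other steps of mRNA life. LSM1A (AT1G19120), part of the complex that starts decapping and decay, read 7.13, 7.06 and 7.27 in heated shoots, against 8.12 and 8.21 in untreated shoots and differed by -1.01 ± 0.12. THO1 (AT5G09860), of the complex that couples transcription to export, differed by -0.70 ± 0.11.

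The list of ribosome biogenesis and translation held 8 rises and 3 falls among 19 measured members, beside 12.7% and 11.7% of all genes. Its median log2 difference was 0.39. The falls numbered 0 without untreated replicate 2, while the rises numbered 7 or 8 with any 1 array left out. The helicase RH57 (AT3G09720) rose by 1.73 ± 0.15, the small-subunit processing factor IMP4 (AT1G63780) by 1.23 ± 0.11 and PESCADILLO (AT5G14520), of the large subunit's assembly, by 1.22 ± 0.09. IMP4 read 8.28, 8.15 and 8.17 in heated shoots, against 6.87 and 7.06 in untreated shoots, and PESCADILLO read 9.56, 9.52 and 9.54 in heated shoots, against 8.34 and 8.3 in untreated shoots, both with tight groups. Among RNA polymerase and Mediator subunits, 6 of 17 measured members rose and 2 fell, with a median log2 difference of 0.29. Leaving out heated replicate 1, heated replicate 2 or untreated replicate 1 left 3 rises. They numbered 3 after quantile normalization. NRPC2, a core subunit of RNA polymerase III, rose by 1.44 ± 0.31 and the Mediator subunit MED19A by 0.75 ± 0.11, while NRPB9B and MED18 (AT2G22370) differed by -0.94 ± 0.14 and -0.69 ± 0.12. In the factors that process organelle transcripts, 3 of 23 measured members rose and 1 fell, with a median log2 difference of 0.06. Their called share, 17.4%, was below the 24.4% of all genes. Only 1 rose without heated replicate 2, untreated replicate 1 or untreated replicate 2. mTERF9 (AT5G55580), of a family that controls organelle gene expression, read 4.47, 4.54 and 4.6 in heated shoots, against 5.62 and 5.95 in untreated shoots and fell by 1.25 ± 0.10.

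The called share differed between the listed transcription factor families. A symbol other than a locus is given for 1552 of the 13350 genes, so each family may be incomplete. Over all genes 24.4% were called, 12.7% higher and 11.7% lower. The bHLH (13.6%) and MADS-box (9.76%) families lay below that share, and the bZIP (26.1%) and other plant factors (26.3%) near it. Of the bZIP factors, 5 of 23 measured members rose and 1 fell, with a median log2 difference of 0.30, and 5 or 6 rose with any 1 array left out, while none fell. Beside BZIP28, bZIP58 read 5.37, 5.63 and 5.94 in heated shoots, against 3.44 and 3.62 in untreated shoots, and bZIP44 read 7.69, 7.29 and 7.45 in heated shoots, against 5.82 and 5.23 in untreated shoots. They rose by 2.11 ± 0.21 and 1.95 ± 0.25, and bZIP69 (AT1G06070) by 1.05 ± 0.13. Of the WRKY factors, many of which regulate defence and senescence, 3 of 7 measured members fell and none rose, with a median log2 difference of -0.45. The falls numbered 1 without untreated replicate 1. WRKY6 read 4.45, 4.77 and 4.38 in heated shoots, against 6.84 and 6.17 in untreated shoots and fell by 1.97 ± 0.27. WRKY47 and WRKY53 differed by -2.22 ± 0.49 and -1.84 ± 0.53. WRKY53 had a wide spread, with 4.37, 6.01 and 4.26 in heated shoots, against 7.17 and 6.26 in untreated shoots, and its call was lost without untreated replicate 1 or heated replicate 1 or 3. That of WRKY47 was lost without untreated replicate 1. Of the bHLH factors, 1 of 22 measured members rose and 2 fell, with a median log2 difference of -0.16, and after quantile normalization 6 fell. Without heated replicate 2 or untreated replicate 2, none fell, and 1 fell without heated replicate 1 or heated replicate 3. None rose without untreated replicate 2. Of 41 MADS-box factors, a family best known from flower development, 3 rose and 1 fell. The rises were AGL19 (1.67 ± 0.33), which promotes flowering after cold, AGL65 (0.76 ± 0.11) and AGL18 (0.62 ± 0.10), and the fall was AGL16 (-0.67 ± 0.19), not called without heated replicate 3 or either untreated replicate. None of the 11 listed AP2 and ERF factors was called, although 1 fell without untreated replicate 1. The listed member with the smallest p was SNZ at -0.60 ± 0.26 and an adjusted p of 0.12. Of 38 other plant factors 7 rose and 3 fell. This count of rises was 4 without heated replicate 2, untreated replicate 1 or untreated replicate 2. The falls numbered 1 without untreated replicate 2. RL2 rose by 1.05 ± 0.15 and NAC014 by 0.77 ± 0.15, and the zinc finger factor JACKDAW (JKD) differed by -0.76 ± 0.11.

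Of 12 genes for the clock and light responses 4 rose and 2 fell, beside 12.7% and 11.7% of all genes. GIGANTEA (GI, AT1G22770), a clock component that also times flowering, read 7.86, 7.83 and 7.81 in heated shoots, against 5.86 and 5.38 in untreated shoots. XCT (AT2G21150), which sets the clock's period, read 7.02, 7.23 and 7.33 in heated shoots, against 4.89 and 5.33 in untreated shoots. They rose by 2.21 ± 0.28 and 2.09 ± 0.20 (SE), at adjusted p of 0.000161 and 1.49e-05. SPY, a sugar-transferring repressor of gibberellin signalling, rose by 0.83 ± 0.15, and BLUS1 (AT4G14480), a kinase of the stomatal response to blue light, differed by -0.52 ± 0.08. Without untreated replicate 1, 1 of the falls was called. Among auxin genes 3 of 19 rose and none fell, and this share of rises, 15.8%, was near the 12.7% of all genes. GH3.3, which joins auxin to amino acids, rose by 1.84 ± 0.38, and IAGLU, which joins auxin to glucose, by 1.41 ± 0.14. Both inactivate auxin. The third, GH3.1, rose by 0.27 ± 0.09 and was not called with any 1 array left out, in the wild-type arrays alone or after centring. Without untreated replicate 2, 1 auxin gene fell.

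Transcripts of the mitochondrial genome were higher in heated shoots in nearly every gene measured. This small genome encodes subunits of the respiratory chain, of cytochrome c assembly and of ribosomes. In all, 15 of 16 measured members rose and none fell, with a median log2 difference of 3.168, and 15 rose with any 1 array left out. The complex I subunit nad6 read 10.23, 10.58 and 10.71 in heated shoots, against 4.95 and 4.31 in untreated shoots. The complex I subunit nad5 read 9.91, 9.996 and 9.85 in heated shoots, against 5.1 and 4.52 in untreated shoots. The complex IV subunit cox2 read 10.02, 10.16 and 10.16 in heated shoots, against 5.8 and 5.96 in untreated shoots. Each of these genes had all heated arrays at 9.85 or above and all untreated arrays below 6. The log2 differences were 5.88 ± 0.31, 5.11 ± 0.21 and 4.23 ± 0.18 (SE). Of the other complex I subunits, nad4L, nad9, nad4 and nad7 rose by 4.01, 3.6, 1.15 and 0.78, and nad2 was not called at -0.05 ± 0.12. The nad2 signals (3.54 to 3.74) and the untreated nad7 signals (3.29 and 3.4) lay at about or below the arrays' lower quartiles (3.71 to 3.79). Signals in that range were not shown to exceed background. The complex IV subunit cox1 read 10.58, 10.69 and 10.4 in heated shoots, against 7.77 and 7.33 in untreated shoots and rose by 3.01. The maturase matR, which helps introns out, rose by 3.48. The genes ccb452, ccb203, ccb382 and ccb206, for cytochrome c maturation, rose by 3.32, 3.16, 1.46 and 1.44, and orfX by 2.0. For nad1 the array holds 7 probe sets, with differences from 0.12 to 4.33. The probe set with the highest mean rose by 3.172 ± 0.32, 4 others rose by 4.33, 3.89, 2.94 and 1.81, and the last 2 were not called at 0.27 and 0.12. Probe sets of nad6, nad5, matR, ccb452 and orfX hold probes shared with other sequences. A copy of mitochondrial DNA lies in the nuclear genome, and whether the other probe sets match it was not examined. The source of the signal can therefore not be told apart. The 25S ribosomal RNA control was higher in heated shoots by 2.35, and its part in the result was not tested. The 5S control read 3.2, 3.26 and 3.52 in heated shoots, against 3.26 and 3.25 in untreated shoots.

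**Figure D3:**
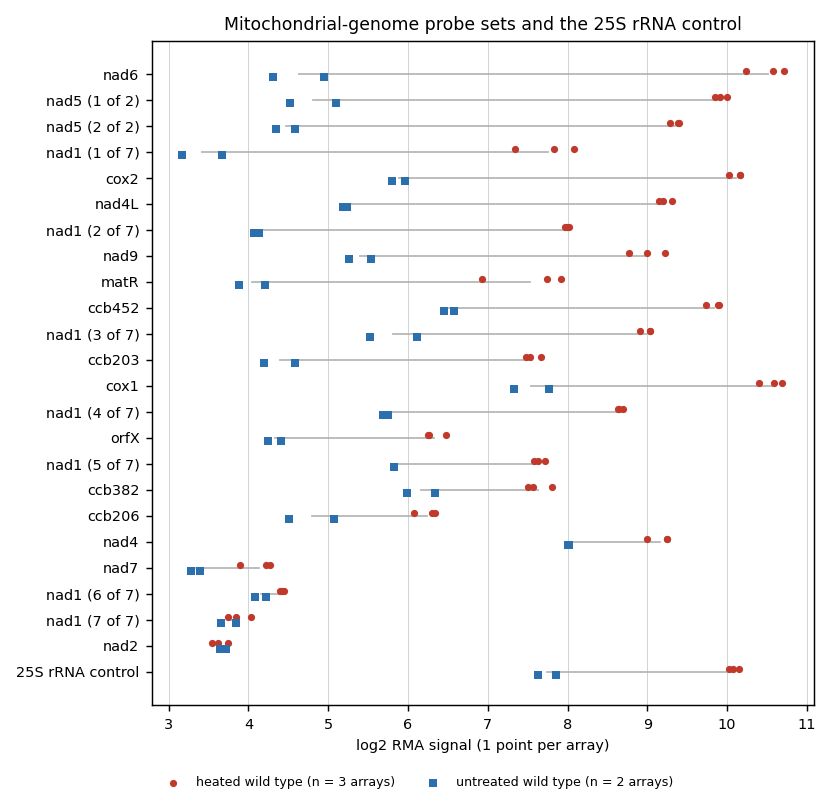
Log2 RMA signal (x axis) on each array for the 23 probe sets of 16 mitochondrial genes and for the 25S ribosomal RNA control, heated wild type as circles (n = 3) above untreated wild type as squares (n = 2), joined by a line between group means. The order is by log2 difference, from nad6 at 5.88 down to nad2 at -0.05, and nad1 is shown by all 7 of its probe sets.

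The plastid genome behaved otherwise. In all, 7 of 69 measured members rose and 1 fell, with a median log2 difference of 0.18, beside 12.7% and 11.7% of all genes. With untreated replicate 1 left out, 2 rose, and none fell without heated replicate 1 or either untreated replicate, while 2 fell without heated replicate 3. After quantile normalization 4 rose and 5 fell, with a median of -0.02, so that the direction of the list as a whole was not stable. The photosystem II genes psbT and psbB read 6.28, 6.47 and 6.98 in heated shoots, against 4.71 and 4.98 in untreated shoots, and 7.88, 7.61 and 7.64 in heated shoots, against 6.54 and 6.49 in untreated shoots. They rose by 1.73 ± 0.24 and 1.19 ± 0.24. Members of the psb group had a median of 0.48 (15 genes, 3 rose), those of the ndh group a median of 0.00 (10 genes, 1 rose) and those of the rpo group, the plastid RNA polymerase, a median of -0.25 (4 genes, none called). Among nuclear genes of the thylakoid, 4 of 27 measured members rose and 1 fell, with a median log2 difference of 0.08, and after quantile normalization the median was -0.23 with 4 falls. None fell without heated replicate 2 or untreated replicate 2. LPA19 (AT1G05385), an assembly factor of photosystem II, read 9.81, 9.52 and 9.66 in heated shoots, against 7.51 and 7.86 in untreated shoots and rose by 1.98 ± 0.16. PGRL1B, of the cyclic electron flow around photosystem I, rose by 0.67 ± 0.13 and PIFI, of chlororespiration, by 0.66 ± 0.14. In the synthesis of chlorophyll, haem and carotenoids, 6 of 16 measured members rose and none fell, with a median log2 difference of 0.22. Leaving out untreated replicate 2 left 2 rises, and 3 rose without heated replicate 1 or untreated replicate 1. They numbered 3 after quantile normalization. PORB (AT4G27440), which makes chlorophyllide in the light, read 11.28, 11.17 and 11.17 in heated shoots, against 9.87 and 9.96 in untreated shoots and rose by 1.29 ± 0.13, and the carotenoid isomerase Z-ISO rose by 0.88 ± 0.16. Of 5 genes of carbon fixation and photorespiration, Rubisco activase (RCA), known for its heat sensitivity, was called at 0.32 ± 0.10, a call lost in the wild-type arrays alone, under quantile normalization, among the brighter probe sets only, and without heated replicate 1 or 2 or untreated replicate 1.

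In carbon metabolism the clearest single change was in fermentation. PDC2 (AT5G54960), a pyruvate decarboxylase, read 9.9999, 10.58 and 10.14 in heated shoots, against 7.13 and 6.39 in untreated shoots. It rose by 3.48 ± 0.23 at an adjusted p of 8.57e-07, well outside the spread of either group. In the whole list of glycolysis, fermentation and the TCA cycle, 2 of 22 measured members rose and 3 fell, with a median log2 difference of -0.06. Its called share, 22.7%, was near the 24.4% of all genes. After quantile normalization 8 fell and 1 rose, and 1 rose without heated replicate 2, heated replicate 3 or untreated replicate 2. The falls were ACLB-1, a subunit of ATP-citrate lyase (-1.21 ± 0.17), IDH-VI, an isocitrate dehydrogenase subunit (-1.1 ± 0.09), and GAPC2, a cytosolic glyceraldehyde-3-phosphate dehydrogenase (-0.43 ± 0.09). IDH-VI read 5.95, 5.9 and 5.99 in heated shoots, against 7.07 and 7.02 in untreated shoots. Among electron carriers and alternative dehydrogenases of mitochondria, 2 of 13 measured members rose and 4 fell, with a median log2 difference of 0.11. Only 1 fell without untreated replicate 1, and 2 fell without heated replicate 2 or heated replicate 3. The rises numbered 1 without heated replicate 2 or untreated replicate 2. Cytochrome c CYTC-2 (AT4G10040) read 10.49, 10.58 and 10.47 in heated shoots, against 8.22 and 8.15 in untreated shoots and rose by 2.32 ± 0.09. In contrast to it, ETFBETA, of the flavoprotein that passes on electrons from amino acid breakdown, differed by -0.76 ± 0.13.

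Breakdown of amino acids and purines was a list with falls alone. In all, 9 of 19 measured members fell and none rose, with a median log2 difference of -0.38, beside 11.7% of all genes that fell. The falls numbered 4 without untreated replicate 1. Isovaleryl-CoA dehydrogenase (IVD, AT3G45300), of leucine breakdown, read 6.43, 6.54 and 6.11 in heated shoots, against 8.06 and 7.48 in untreated shoots. MCCA (AT1G03090), the next enzyme of that path, read 6.8, 6.61 and 6.67 in heated shoots, against 7.79 and 7.6 in untreated shoots. They differed by -1.41 ± 0.19 and -1.0 ± 0.12, and ALDH6B2, of valine breakdown, by -0.83 ± 0.13. The lysine-degrading enzyme LKR/SDH (AT4G33150) differed by -1.45 ± 0.42, with untreated values of 7.99 and 6.58, and its call was lost in the wild-type arrays alone and without heated replicate 3 or untreated replicate 1. Of 8 aldehyde dehydrogenases, ALDH6B2 among them, 5 fell and 1 rose. Without heated replicate 1, heated replicate 3, untreated replicate 1 or untreated replicate 2, 3 fell, and none rose without untreated replicate 2. ALDH3F1 differed by -0.82 ± 0.14. In amino acid synthesis and sulphur assimilation, 5 of 13 measured members fell and none rose, with a median log2 difference of -0.37. This count of falls was 2 without heated replicate 3 or untreated replicate 2, and 3 fell without untreated replicate 1. SAMDC (AT3G02470), which makes the aminopropyl donor for polyamines, read 10.03, 10.27 and 9.86 in heated shoots, against 11.67 and 11.76 in untreated shoots and fell by 1.66 ± 0.12 at an adjusted p of 1.4e-06. The homocysteine methyltransferase HMT-1 differed by -1.03 ± 0.20. In flavonoid and anthocyanin synthesis, 3 of 8 measured members fell and none rose, with a median log2 difference of -0.13. Dihydroflavonol reductase (DFR, AT5G42800) read 4.34, 3.96 and 3.88 in heated shoots, against 6.67 and 6.78 in untreated shoots, and the chalcone isomerase-like protein CHIL read 4.95, 5.07 and 5.26 in heated shoots, against 6.97 and 7.47 in untreated shoots. They differed by -2.66 ± 0.33 and -2.13 ± 0.26. The third, UF3GT, differed by -1.27 ± 0.31 and was not called without untreated replicate 2. None of 3 further UDP-glucosyltransferases of the path (UGT78D1, UGT78D2, UGT78D3) was called.

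Starch and sugar genes moved both ways, and over all genes 12.7% rose and 11.7% fell. In the list of starch and sugar metabolism, 4 of 12 measured members rose and 1 fell, with a median log2 difference of 0.00. With untreated replicate 1 left out, 2 rose, and none fell without heated replicate 2 or either untreated replicate. The starch branching enzyme SBE2.2 read 9.22, 8.85 and 8.93 in heated shoots, against 7.67 and 7.77 in untreated shoots and rose by 1.27 ± 0.14, and DPE1, which rearranges the products of starch breakdown, rose by 0.61 ± 0.11. QQS, a small gene that affects starch, had a wide spread, with 5.77, 8.88 and 8.5 in heated shoots, against 4.42 and 5.16 in untreated shoots, and its rise of 2.92 ± 0.70 was not called without untreated replicate 1. Of the sugar transporters, 1 of 21 measured members rose and 5 fell, with a median log2 difference of -0.12. Leaving out heated replicate 2 left 3 falls. The plasma membrane sugar carrier SWEET1 (AT1G21460) read 9.45, 9.24 and 9.88 in heated shoots, against 7.1 and 7.47 in untreated shoots, and SWEET2, of the vacuole, read 5.85, 6.01 and 5.3 in heated shoots, against 7.36 and 7.41 in untreated shoots. Their differences were 2.24 ± 0.31 and -1.67 ± 0.25, and SWEET4 and SFP1 differed by -1.23 ± 0.24 and -1.14 ± 0.23. In the nitrate and peptide transporter family 1 of 12 rose and 2 fell, with NPF6.2 (AT2G26690) at 1.27 ± 0.16 and NPF3.1 (AT1G68570) at -1.24 ± 0.11. GTR2, a glucosinolate transporter of this family, differed by -0.83 ± 0.23 and was not called without untreated replicate 1 or heated replicate 1. The manganese transporter MTP11 fell by 1.42 ± 0.12. None of 5 subunits of the vacuolar proton pump was called, with differences from -0.64 to 0.15, and 1 fell after quantile normalization and without heated replicate 1 or 2.

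Of the genes for cell wall and growth, 6 of 19 expansins and 9 of 17 genes of wall polysaccharide synthesis fell, beside 11.7% of all genes. GH9C2 (AT1G64390), an endoglucanase of glycosyl hydrolase family 9, read 5.47, 5.62 and 5.11 in heated shoots, against 9.0 and 8.98 in untreated shoots. Its log2 difference of -3.59 ± 0.24 (SE) was the largest fall among the 13350 genes, while over all probe sets 1 called fall reached 4 or more. The expansins loosen walls during growth. EXPA4 (AT2G39700) read 5.97, 5.91 and 5.58 in heated shoots, against 8.87 and 8.97 in untreated shoots. EXPA8 (AT2G40610) read 6.89, 6.32 and 6.26 in heated shoots, against 9.0 and 9.39 in untreated shoots. EXPA16 read 4.67, 4.61 and 4.65 in heated shoots, against 6.67 and 6.71 in untreated shoots. These 3 expansins differed by -3.1 ± 0.18, -2.7 ± 0.24 and -2.04 ± 0.35, and EXPA15 by -1.84 ± 0.24. Among expansins, 1 of 19 measured members rose and 6 fell, with a median log2 difference of -0.20, and 5 to 7 fell with any 1 array left out. The rise, EXLA2 at 0.58 ± 0.19, was not called without heated replicate 1 or 3 or either untreated replicate. Of 10 xyloglucan endotransglucosylases 2 fell, with XTH19 at -0.84 ± 0.13 in a range of 3.3 to 4.34, and of 15 genes of glycosyl hydrolase family 9 2 fell, GH9C2 and GH9B8 (-1.93 ± 0.37). With 20% and 13.3% called, beside 11.7% of all genes that fell, these counts are small, and 1 xyloglucan endotransglucosylase fell without untreated replicate 2 or any 1 heated replicate.

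In wall polysaccharide synthesis, 2 of 17 measured members rose and 9 fell, beside 12.7% and 11.7% of all genes. The median log2 difference was -0.39. Only 5 fell without untreated replicate 2, and 1 rose without heated replicate 1 or either untreated replicate. CSLC5 (AT4G31590) and CSLC04 (AT3G28180), of the family that makes the xyloglucan backbone, read 4.44, 4.47 and 4.33 in heated shoots, against 6.07 and 6.2 in untreated shoots, and 6.51, 6.1 and 5.91 in heated shoots, against 7.62 and 7.49 in untreated shoots. They differed by -1.72 ± 0.12 and -1.38 ± 0.20, and CSLD2, a cellulose synthase-like protein, by -1.29 ± 0.21. The xylan synthesis gene GUT1 (AT5G61840) went the other way, with 8.29, 8.05 and 8.01 in heated shoots, against 6.72 and 6.69 in untreated shoots, a rise of 1.42 ± 0.10. In the family that acetylates wall polymers, 5 of 24 measured members fell and none rose, with a median log2 difference of -0.13. The falls numbered 3 without untreated replicate 1 or untreated replicate 2, and 2 rose without heated replicate 3. TBL28 and TBL25 differed by -1.18 ± 0.20 and -0.91 ± 0.17. The pectin methylesterase ATPMEPCRB differed by -1.61 ± 0.21, the only one of 6 pectin genes to be called, and 2 fell without untreated replicate 2. Prenylated RAB acceptors, which act in membrane traffic, had the highest share of falls of any list with 10 or more measured genes, as 7 of 11 measured members fell and none rose, with a median log2 difference of -0.62. Without untreated replicate 1, 3 fell, and 4 fell without untreated replicate 2. PRA8 (AT3G13720) read 6.21, 6.2 and 5.97 in heated shoots, against 8.83 and 8.46 in untreated shoots and fell by 2.52 ± 0.35. PRA1.B6 and PRA1.A1 differed by -1.15 ± 0.17 and -1.0 ± 0.13.

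**Figure D4:**
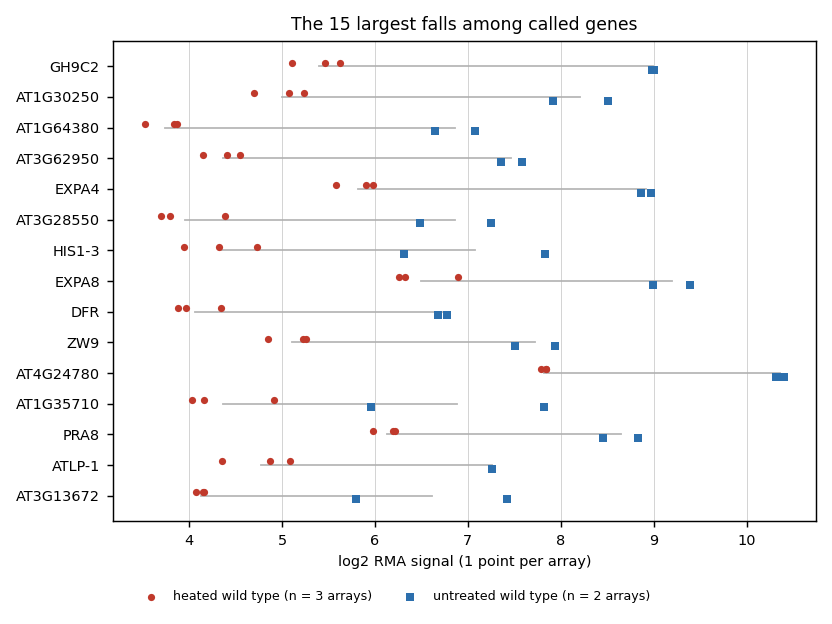
Log2 RMA signal (x axis) of the 15 called genes with the largest falls on each array, heated wild type as circles (n = 3) above untreated wild type as squares (n = 2), joined by a line between group means. Log2 differences run from -3.59 for GH9C2 to -2.48 for AT3G13672 on the log2 scale, and AT1G35710, HIS1-3 and AT3G13672 have untreated arrays more than 1 apart.

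The remaining large falls were spread over several roles. HIS1-3 (AT2G18050), a linker histone known from drought, read 3.95, 4.73 and 4.32 in heated shoots, against 7.83 and 6.31 in untreated shoots and fell by 2.74 ± 0.41. ATLP-1 (AT1G18250), a thaumatin-like protein, read 5.08, 4.87 and 4.35 in heated shoots, against 7.26 and 7.26 in untreated shoots and fell by 2.49 ± 0.22. SINA2 (AT3G13672), of a ubiquitin ligase family, read 4.16, 4.08 and 4.15 in heated shoots, against 7.42 and 5.79 in untreated shoots. The untreated arrays of HIS1-3 and SINA2 were far apart, with replicate 1 the higher one. ZW9 (AT1G58270) and the loci AT1G30250, AT1G64380, AT3G62950, AT3G28550 and AT4G24780 differed by -2.62, -3.21, -3.12, -3.1, -2.9 and -2.54. Of the 15 largest falls, AT1G35710 was the one whose call was lost under an alternative setting. Its difference was -2.52 ± 0.71 with untreated values of 7.82 and 5.96, and it was -1.59 at an adjusted p of 0.239 without untreated replicate 1. The call was also lost without heated replicate 1 or 3.

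In the lists of cell division and of DNA repair, 21.7% and 16% of the members were called, all lower, beside 11.7% of all genes that fell. In cell cycle and DNA replication, 5 of 23 measured members fell and none rose, with a median log2 difference of -0.09, and 5 or 6 fell with any 1 array left out. BUB3.1 (AT3G19590), of the spindle checkpoint, read 4.83, 4.42 and 4.86 in heated shoots, against 6.24 and 6.19 in untreated shoots. POLA3 (AT5G41880), of the primase that starts DNA synthesis, read 4.96, 5.11 and 5.12 in heated shoots, against 6.2 and 6.5 in untreated shoots. The mitotic kinase AUR1 (AT4G32830) read 4.8, 4.62 and 4.75 in heated shoots, against 5.78 and 5.66 in untreated shoots. They differed by -1.51 ± 0.15, -1.28 ± 0.11 and -1.0 ± 0.12, and FBL17, which targets cell cycle inhibitors for destruction, by -0.92 ± 0.13. Of 8 histones 3 fell, the H2B genes HTB11 (-1.14 ± 0.24) and HTB2 (-1.39 ± 0.23) and HIS1-3. The H2B gene HTB4 rose by 0.68 ± 0.19, a call lost without heated replicate 3 or either untreated replicate and after quantile normalization. In DNA repair and meiosis 4 of 25 fell. This count of falls was 1 without heated replicate 2, and 2 fell without heated replicate 1 or untreated replicate 1 or untreated replicate 2. REV7, of translesion synthesis, differed by -0.57 ± 0.11. Among tubulins, TUB9 differed by -0.69 ± 0.10 and TUA6 by 0.50 ± 0.11, and TUA6 was not called without untreated replicate 1 or after quantile normalization. Of 14 microtubule-associated proteins 3 fell, PFI (-1.05 ± 0.14), KINESIN-13A (-0.87 ± 0.16) and TON1B (-0.54 ± 0.15), and the last was not called without heated replicate 1 or either untreated replicate.

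Protein turnover and membrane traffic held members in both directions. Over all genes 12.7% rose and 11.7% fell, 24.4% in all, and the vesicle traffic list (19.5% called) lay below that share. In autophagy, all called members belonged to the ATG8 family of membrane tags, and 5 of 11 measured members rose and 1 fell, with a median log2 difference of 0.46. With untreated replicate 2 left out, 2 rose. APG8A (AT4G21980) read 9.51, 9.68 and 9.4 in heated shoots, against 8.22 and 7.83 in untreated shoots, and ATG8H (AT3G06420) read 7.89, 8.01 and 7.87 in heated shoots, against 6.75 and 6.45 in untreated shoots. They rose by 1.5 ± 0.22 and 1.33 ± 0.25, whereas ATG8G differed by -0.85 ± 0.16. Of 12 ubiquitin-specific proteases 4 rose and 1 fell (none without heated replicate 2 or untreated replicate 2), with UBP18 at 1.51 ± 0.20 and UBP24 at 0.71 ± 0.14. Of 20 U-box and RING ubiquitin ligases 4 rose and 4 fell. Leaving out untreated replicate 1 or untreated replicate 2 left 1 rise, and 2 rose without heated replicate 2. The falls numbered 2 without untreated replicate 2. PUB24 and PUB25 differed by -1.42 ± 0.26 and -1.04 ± 0.21. The ubiquitin-conjugating enzymes UBC18 and UBC20 moved apart, at 1.09 ± 0.13 and -1.36 ± 0.15. In vesicle traffic, 6 of 41 measured members rose and 2 fell, with a median log2 difference of 0.07. After quantile normalization this median was -0.01. Only 2 rose without untreated replicate 2. None fell without heated replicate 3 or untreated replicate 1, and 1 fell with any other array left out. VPS60.1 and VPS2.1, of the machinery that buds vesicles into endosomes, rose by 1.72 ± 0.13 and 0.65 ± 0.12. Of 29 serine carboxypeptidase-like proteins 7 fell and 1 rose. The falls numbered 4 without heated replicate 3, untreated replicate 1 or untreated replicate 2, and none rose without heated replicate 2 or 3 or untreated replicate 2. scpl42, scpl46 and scpl20 differed by -1.11 ± 0.10, -0.96 ± 0.14 and -0.87 ± 0.15. The subtilase ARA12 differed by -1.31 ± 0.14. Tetraspanins, which organise membrane domains, included TET2 (AT2G19580) with 9.39, 9.41 and 9.41 in heated shoots, against 6.6 and 6.35 in untreated shoots, a rise of 2.93 ± 0.20, and TET8, which differed by -1.29 ± 0.23.

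Genes tied to other stresses did not move as 1 group. Of all genes 12.7% rose and 11.7% fell, 24.4% in all. The called shares of defence proteins (16.1%), UDP-glycosyltransferases (17.6%) and glutathione transferases (14.3%) lay below that. Of 20 cold, drought and late embryogenesis proteins 3 rose and 3 fell. Without heated replicate 1, heated replicate 2, untreated replicate 1 or untreated replicate 2, 1 fell. The lipocalin TIL (AT5G58070), which protects membranes under temperature stress, read 12.82, 12.72 and 12.62 in heated shoots, against 9.91 and 9.75 in untreated shoots. The dehydrin COR47 read 12.1, 12.76 and 12.46 in heated shoots, against 10.59 and 10.33 in untreated shoots. SRC2, a membrane-bound protein of cold responses, read 12.36, 12.65 and 12.3 in heated shoots, against 10.69 and 10.34 in untreated shoots. The 3 genes rose by 2.89 ± 0.12, 1.98 ± 0.35 and 1.92 ± 0.24. Of 24 antioxidant and repair enzymes 5 rose and 7 fell. This count of falls was 3 without untreated replicate 1 or untreated replicate 2, and 3 rose without untreated replicate 2. AOR, which removes reactive carbonyls, rose by 0.90 ± 0.11 and GLY2, of the glyoxalase system, by 0.50 ± 0.09, while VTC4, of ascorbate synthesis, differed by -1.35 ± 0.19. The thioredoxin TO2 and the peroxidase PRXR1 differed by -1.09 ± 0.15 and -0.54 ± 0.10. Of 31 defence proteins 2 rose and 3 fell, with the protease inhibitor SERPIN1 at 0.80 ± 0.12, the defensin LCR68 at 0.77 ± 0.14, ATLP-1 as above and the kinase PTI1-4 at -1.56 ± 0.32. The third fall was the immune kinase BIK1 at -0.86 ± 0.20, not called without untreated replicate 1. Of 19 RALF and CLE peptides, which act as growth signals, 4 fell, and with untreated replicate 2 left out, none fell, and 1 fell without heated replicate 3 or untreated replicate 1. Of 24 cytochrome P450 enzymes 5 rose and 3 fell. Leaving out heated replicate 1, heated replicate 2, untreated replicate 1 or untreated replicate 2 left 3 rises, and 1 fell without untreated replicate 1. CYP71B5, CYP71B26 and CYP71B28 rose by 1.5 ± 0.21, 1.08 ± 0.14 and 0.99 ± 0.12. Of 51 UDP-glycosyltransferases 4 rose and 5 fell. Only 2 rose without untreated replicate 2, and 3 fell without untreated replicate 1. UGT73C1 rose by 0.96 ± 0.18, and UGT76C2 and UGT76C1, which glucosylate cytokinins, differed by -1.63 ± 0.15 and -0.67 ± 0.13. The glutathione transferases GSTU18 and GSTU20 moved apart, at 0.85 ± 0.16 and -1.53 ± 0.20.

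The list of lipid and wax metabolism held 3 rises and 7 falls among 29 measured members, beside 12.7% and 11.7% of all genes. Its median log2 difference was -0.04, and 0.01 with the arrays centred on their medians. The falls numbered 4 without untreated replicate 1. FaTA, a thioesterase that ends fatty acid synthesis in plastids, read 6.74, 6.76 and 6.47 in heated shoots, against 4.83 and 4.58 in untreated shoots and rose by 1.95 ± 0.20. AAE15, which returns fatty acids to the plastid's carrier protein, rose by 1.07 ± 0.14. The glycerol-3-phosphate dehydrogenase GPDHC1 read 4.5, 4.33 and 4.74 in heated shoots, against 5.96 and 6.33 in untreated shoots, the sterol enzyme CPI1 read 6.12, 5.75 and 5.75 in heated shoots, against 7.26 and 7.29 in untreated shoots, and CER26 (AT4G13840), of wax elongation, read 7.11, 7.0 and 6.79 in heated shoots, against 7.95 and 8.02 in untreated shoots. They differed by -1.62 ± 0.14, -1.4 ± 0.14 and -1.02 ± 0.21.

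**Figure D5:**
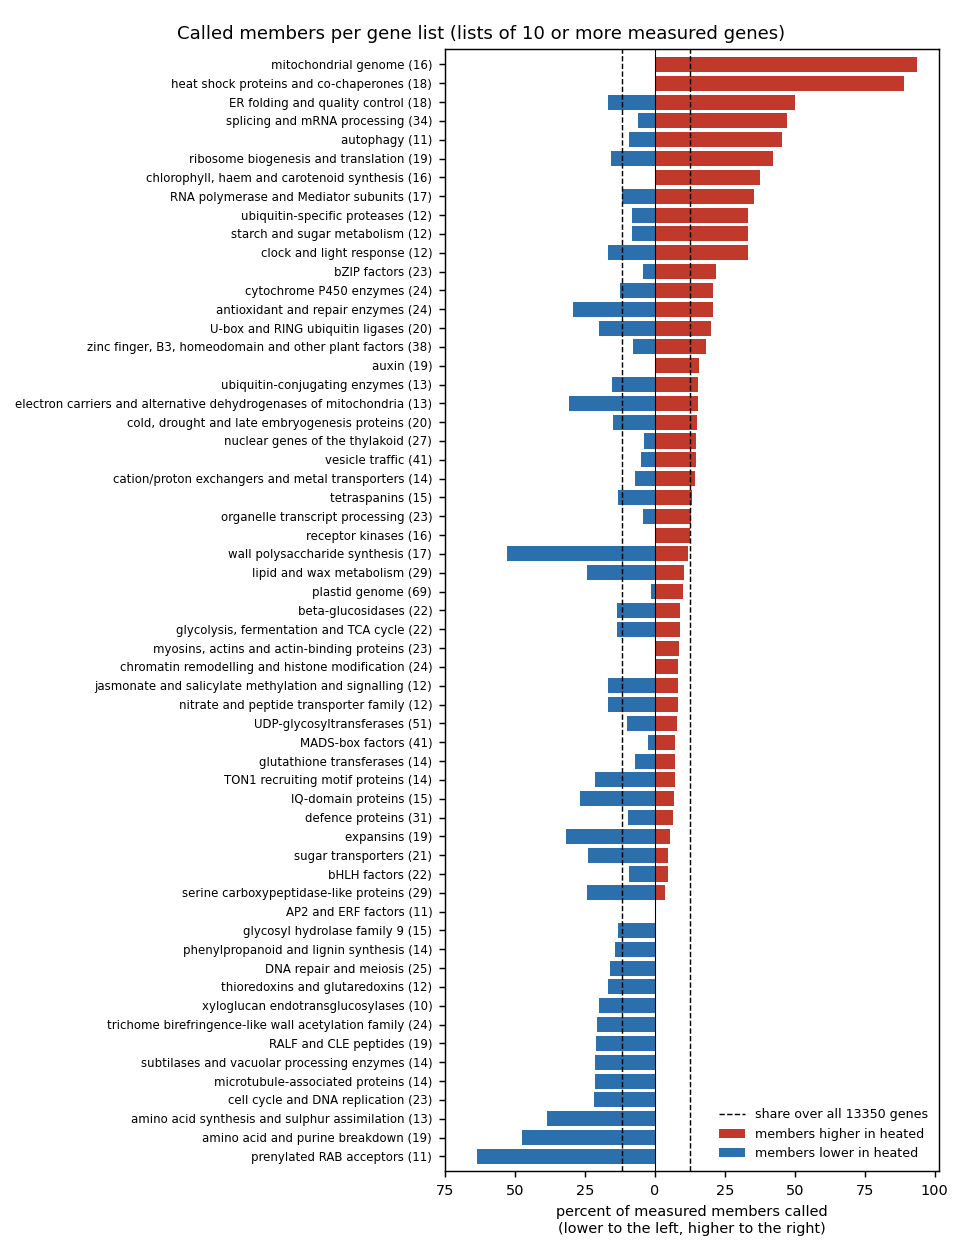
Share of measured members called higher (right) and lower (left) in heated wild-type shoots for the 59 gene lists with 10 or more measured genes, the number measured in brackets, with dashed lines at the shares over all 13350 genes (12.7% higher, 11.7% lower). The share of rises was above the line in 25 lists and the share of falls in 35, and neither was in 10.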

How the data were processed

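RNA of above-ground parts was hybridised to Affymetrix arrays. The deposited values are log2 signals per probe set, made by the authors with RMA from the affy package, per the submitters' processing notes, with versions not given. That method adjusts for background, equalises array distributions and combines the probes of a set, and it compresses differences at low signal. Of 22810 probe sets, 64 controls were left out and 22746 tested. Of these, 13513 carry 1 gene in the platform annotation, 503 several, and 13436 were matched to RefSeq. Genes of several probe sets (152 of 13350) are given by the one with the highest mean. In 59 of these at least 1 probe set was called, and in 11 of the 59 all probe sets were called, in the same direction. None was called in opposite directions.

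All 12 arrays entered 1 limma fit of group means (8 residual and 3.22 prior degrees of freedom, prior SD 0.145), since the untreated wild type has 2 arrays. Tests were two-sided, with Benjamini-Hochberg adjustment over all probe sets at 0.05, and errors are limma's moderated SE. The number of arrays limits the precision. Genes were grouped in 74 lists (1288 genes) drawn from annotated names. The comparison, the lists and their members were chosen with earlier results of these data known, so list counts are descriptions. Named genes are the 15 largest rises, the 15 largest falls and up to 4 genes in each direction per list. These were taken from called genes whose groups do not overlap, so that separation was set by the choice. Any member of a list with at most 8 measured genes could be named too. For the lists of chaperones and of the mitochondrial genome all members are given. Alternatives were the wild-type arrays alone, a replicate block, quantile normalization, centring on array medians, the brighter probe sets only (those above the median of all means), trend and robust moderation, leaving out each array, a size of at least 1, and averaging the probe sets of each gene. Genes without an annotated symbol are given by locus, some with a common name. Heat shock transcription factors, promoters and proteins were not analysed here. The fit was also run on simulated arrays with independent noise and far fewer changed probe sets than were called here. That run does not bear on the calls reported. The fit ran in limma 3.58.1 under R 4.3.3. Tables were made with NumPy 2.4.6 and pandas 2.3.3, and plots with matplotlib 3.10.9, under Python 3.11.15.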

Additional observations from a re-analysis of the deposited data

Results flagged for a closer look

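Among the control probe sets that enter no comparison, the 25S ribosomal RNA control was higher in heated than in untreated wild-type shoots by 2.35 on the log2 scale, with means of 10.08 and 7.74. The mean of the hybridisation spikes BioB, BioC, BioD and Cre, which are added in equal amounts to each sample, was higher on heated than on untreated arrays by 1.08, with means of 9.35 and 8.27. Both signals lie outside the tested probe sets, and their part in the heat response was not tested.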

How the results depend on the processing

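The count of changed probe sets was 4944 to 6550 with the wild-type arrays alone, quantile normalization, centring, the brighter probe sets only, trend and robust moderation or the replicate block, against 6027 in the reported fit. A minimum size of 1 left 2228 (1255 higher and 973 lower). Leaving out 1 array gave 3912 to 5107 changed probe sets, 2060 to 2735 higher and 1852 to 2372 lower, with each lowest count without untreated replicate 1. Fewer untreated arrays lower the number of calls by construction. Scaling moved the split, with 2790 higher and 3449 lower after quantile normalization and 3423 higher and 2493 lower after centring, while the median of all probe sets moved by -0.02 and 0.04. Same-numbered heated and untreated arrays had residual correlations of -0.06 and -0.35. With 2 untreated arrays the residuals from their mean mirror each other, so these values cannot show whether arrays were paired. The numbers were not taken as pairs in the reported fit. With the replicate block 5291 probe sets changed (2762 higher, 2529 lower), and 37 named genes lost their call, among them RCA, DER2.2, ATRER1A, AT4G33150, WRKY53, EXLA2 and GH3.1, with adjusted p of 0.0709, 0.0984, 0.0548, 0.0687, 0.0738, 0.0913 and 0.11. Of 308 called named genes, 170 kept their call under all alternatives run for them and 0 changed direction. Calls were lost by 96 and 94 without untreated replicate 1 and 2, and by 55, 57 and 60 without heated replicate 1, 2 and 3. Quantile normalization gave 3 falls among the 5 genes of the Calvin cycle and photorespiration, against 0, and 4 among the nuclear genes of the thylakoid, against 1. It gave 3 rises each for antioxidant enzymes, against 5, and for autophagy, against 5. Centring gave 1 fall in ER folding, against 3, and 2 in DNA repair, against 4. The wild-type arrays alone gave 11 rises of the plastid genome, against 7, 3 falls of aldehyde dehydrogenases, against 5, and 6 falls of defence proteins, against 3. The sign of the list median turned under quantile normalization or centring in 17 of 74 lists, each with a median between -0.04 and 0.18 in the reported fit. The cause was not tested. No promoter motif count was run.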
